A study of Mus musculus with 16 samples.

Results

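Of the 26781 genes tested in the mouse bladder, 9 that encode antimicrobial peptides or proteins were followed. They are the beta-defensins Defb50 and Defb1, the lectin Reg3g, the lysozymes Lyz1 and Lyz2, the peptidoglycan recognition protein Pglyrp1, the whey acidic protein (WAP) domain proteins Slpi and Wfdc2, and the ribonuclease Rnase4. The genes were chosen by their function and by measured values of these same arrays, since Defb50 was listed for its difference between AGED and MAT mice and the age changes were known when the other genes were picked. The age changes of the 9 genes are therefore descriptions. Where one is said to be called, this states only that it lay past the limits set for all genes, and it supports nothing about a gene chosen on the same contrast. The probes were found through the accession that the array design gives, which named 10 probes, 2 of them for Wfdc2. All 9 genes passed the filter on dim probes.

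Antimicrobial peptides and proteins are the secreted part of the innate defence of the bladder. They are made by the urothelium that lines the lumen and by the macrophages and neutrophils of the wall, and they kill bacteria or hold back their growth in the wall and in urine. Several of them are present at rest, and others are known to be made on contact with bacteria or cytokines.

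Gene expression was measured in the bladder body of C57BL/6 mice of both sexes, with total RNA of 1 bladder labelled with Cy3 on each 1-colour Agilent array. The groups were MAT males and MAT females, which were 12 months old, and AGED males and AGED females, which were 27 to 30 months old. Each group held 4 arrays, and the labels name no treatment or altered gene in any group. A value given here is the log2 processed signal minus the 75th percentile of its array, so that 0 is the level of that percentile and a step of 1 is a 2-fold step. These values compare arrays for 1 probe and do not rank one gene above another.

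The share of probes well above background ran from 52.4% to 61.3% in AGED males, from 60.5% to 65.9% in MAT males, from 59.9% to 63.2% in AGED females and from 64.6% to 68.3% in MAT females. AGED male replicate 1 stood apart, with a 75th percentile of 9.18 (log2) where the rest of its group read 9.90 to 10.00. AGED female replicate 3 was the brightest array, with a 75th percentile of 10.82 where the rest of its group read 9.83 to 10.19. For Defb50, Reg3g, Lyz1, Lyz2 and Slpi the male change is also given without AGED male replicate 1. The urothelial markers Upk1b, Upk2 and Upk3a and the smooth muscle markers Acta2 and Myh11 were well above background on 4 of 4 arrays of each group. Of other organs near or like the bladder, the male accessory gland list had 12 genes with a probe and 2 past the filter, the epididymis list 8 and 1 (Lcn8), and the intestinal list 6 and 4. Among their defining markers Pbsn, Lcn5, Crisp1 and Cdx2 were well above background on 0 arrays, Svs5 on 2 MAT male arrays, Svs2 on 1 MAT male and 1 MAT female array, and Alpi on 1 AGED female array. Females were on slide 1 and males on slide 2, so sex and slide cannot be told apart. Row 1 of either slide held MAT bladders and row 2 AGED bladders, so age and row cannot be told apart.

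The upstream sequences of 3 of the genes are shown first, because Reg3g had the second largest age change among the 9 genes and because Lyz1 and Lyz2 are neighbouring gene copies whose transcripts the probes may not separate. Each window is the 250 bases before the start of the gene, 5′ to 3′ on the strand of the gene, from RefSeq on build GRCm38.p6. Capitals mark matches, on either strand, to the TATA box (TATAAA) or to the C/EBP motif (TTGCNNAA).
Reg3g, chr6:78468875-78469124, minus strand: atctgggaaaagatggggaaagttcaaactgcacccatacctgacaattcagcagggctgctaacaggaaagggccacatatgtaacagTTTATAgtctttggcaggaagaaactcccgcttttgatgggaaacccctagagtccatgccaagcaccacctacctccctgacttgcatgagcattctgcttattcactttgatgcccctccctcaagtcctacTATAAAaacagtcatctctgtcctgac
Lyz2, chr10:117282273-117282522, minus strand: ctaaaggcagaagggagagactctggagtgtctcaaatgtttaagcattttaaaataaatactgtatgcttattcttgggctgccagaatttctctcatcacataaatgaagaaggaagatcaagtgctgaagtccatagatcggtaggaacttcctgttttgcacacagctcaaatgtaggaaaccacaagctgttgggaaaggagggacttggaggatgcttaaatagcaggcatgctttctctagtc
Lyz1, chr10:117292869-117293118, minus strand: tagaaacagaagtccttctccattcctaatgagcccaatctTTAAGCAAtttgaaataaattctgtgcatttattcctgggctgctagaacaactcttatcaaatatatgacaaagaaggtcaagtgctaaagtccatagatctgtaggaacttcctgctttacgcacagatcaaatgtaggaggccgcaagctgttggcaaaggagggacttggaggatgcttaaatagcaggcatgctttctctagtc
The Reg3g window held TATAAA 27 to 22 bases before the start and, on the opposite strand, 161 to 156 bases before it. The Lyz1 window held a C/EBP match 209 to 202 bases before the start, and the Lyz2 window held no match to the letters searched. The STAT motif TTCNNNGAA and the AP-1 motif TGANTCA were searched too, with no match in these 3 windows. Among 32851 windows of the same length, 12.4% held the TATA box, 9.56% the C/EBP motif, 7.02% the STAT motif and 6.75% the AP-1 motif. The upstream windows of Lyz1 and Lyz2 aligned with 200 identical bases in 252 columns, or 79.4%. A probe for one lysozyme may also bind the transcript of the other, and since the probe sequences were not used here both lysozymes are reported as uncertain on this point.

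**Figure D1:**
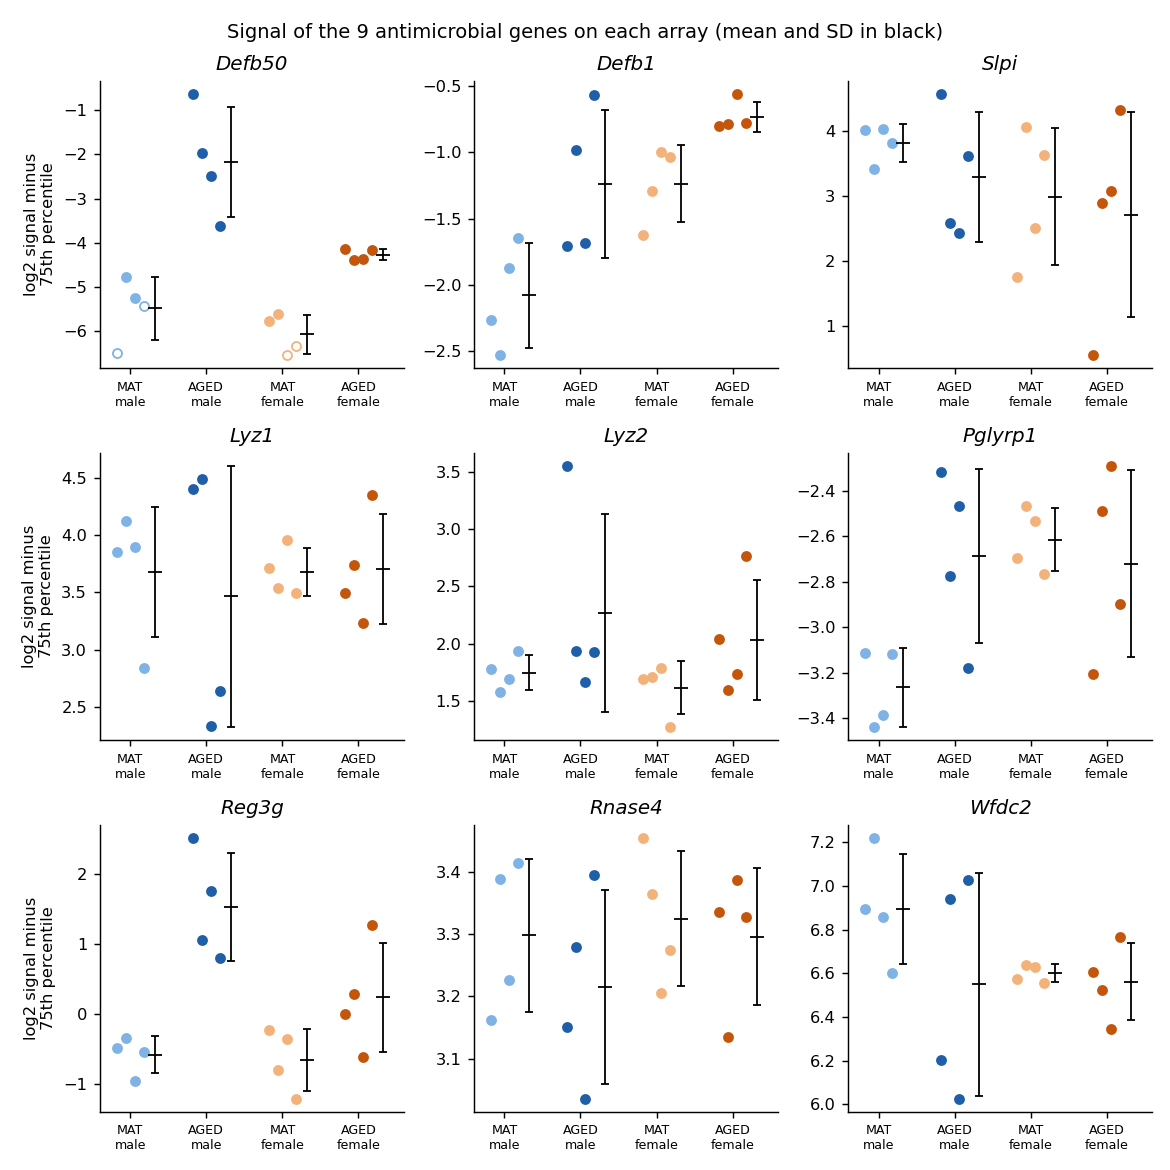
Log2 signal minus the 75th percentile of the array for each of the 9 genes, with 1 point per array, ordered by replicate within each group, and the mean and SD in black (n = 4 arrays per group). Open points were not well above background. Defb50 and Reg3g lay higher on every AGED male array than on every MAT male array, and Rnase4 stayed between 3.04 and 3.45 over all 16 arrays.

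Of the 9 genes, Defb50 and Reg3g differed most between AGED and MAT bladders, and both were higher in AGED males. In AGED males 2 of the 9 were called higher and 0 lower. A call needed a 2-fold change or more and, in limma, a Benjamini-Hochberg adjusted p below 0.05, and 0.851% of all genes tested were called. In AGED females 0 of the 9 were called, where 0.19% of all genes were called. The groups did not overlap for 2 genes in males (Defb50 and Reg3g) and for 2 in females (Defb50 and Defb1), against 7.82% and 10.8% of all genes. The median age change of the 9 genes was 0.53 in males and 0.03 in females on the log2 scale, and over all genes tested it was 0.00 and -0.01. In each sex 5 of the 9 changes lay above 0. Nothing is read from these counts or calls, since the age changes were known when the genes were chosen.

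Defb50 encodes a small cationic peptide of the beta-defensin family, whose members disrupt bacterial membranes. On the MAT male arrays its log2 values were -6.49, -4.77, -5.26 and -5.43 for replicates 1 to 4, and on the AGED male arrays -0.63, -1.96, -2.48 and -3.63. On the MAT female arrays they were -5.78, -5.63, -6.55 and -6.34, and on the AGED female arrays -4.15, -4.40, -4.37 and -4.16. Every AGED array was higher than every MAT array of either sex, and AGED male replicate 1 was the highest of the 16. The probe was well above background on 4 of 4 arrays in both AGED groups and on 2 of 4 arrays in both MAT groups, so the MAT level is partly unmeasured. The mean was -2.18 ± 1.24 (SD, n = 4) in AGED males and -5.49 ± 0.72 in MAT males. It was -4.27 ± 0.13 in AGED females and -6.07 ± 0.44 in MAT females. As fitted, the age change was 3.32 ± 0.49 (SE) in males and 1.80 ± 0.49 in females on the log2 scale, and no fold is given because 2 of the 4 MAT arrays in each sex did not measure the gene. These directions follow the labels of the arrays, whereas the study lists Defb50 under the opposite heading, among genes lower in AGED mice. Which of the labels and that heading is right was not settled here, and if the labels were in error every age direction given for any gene would turn.

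The size of the Defb50 change depended on the background correction. With normexp correction in place of the processed signal it was 1.51 in males, where it was still called, and 0.51 in females. Normexp also moved the median of all genes by 0.12 in males, so the male change relative to the other genes was smaller still. Without AGED male replicate 1 the male change was 2.80 and still called. In females Defb50 was not called over all 16 arrays, but it was called without AGED male replicate 1, which takes part in the common estimate of the spread, with array weights and when females were fitted alone. When males were fitted alone the male change was not called. In a whole bladder, more cells of a type and more RNA per cell cannot be told apart, for this gene or for the others.

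Defb1 encodes the beta-defensin that epithelia of the urinary tract make without stimulation. Its log2 values on the MAT male arrays were -2.27, -2.53, -1.87 and -1.65, and on the AGED male arrays -1.71, -0.98, -1.69 and -0.57. The MAT females read -1.62, -1.29, -0.998 and -1.03, and on the AGED female arrays -0.80, -0.79, -0.56 and -0.78. The AGED females were all above the MAT females, whereas the male groups overlapped by a single MAT array, replicate 4. Between MAT and AGED arrays the change was 0.84 ± 0.25 (SE), 1.79-fold, in males and 0.51 ± 0.25, 1.42-fold, in females, and neither was called. With normexp the male change was 0.21. Defb1 and Defb50 are both on chromosome 8.

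Reg3g encodes a C-type lectin that binds the peptidoglycan of Gram-positive bacteria and is best known from the intestine. On the MAT male arrays its log2 values were -0.48, -0.34, -0.95 and -0.54, and on the AGED male arrays 2.52, 1.06, 1.75 and 0.80. On the MAT female arrays they were -0.23, -0.80, -0.36 and -1.21, and on the AGED female arrays 0.00, 0.30, -0.61 and 1.27. The male groups did not overlap. In females 3 of the 4 AGED arrays were above every MAT array, and AGED female replicate 3 lay among the MAT females. The mean rose from -0.58 ± 0.26 (SD, n = 4) to 1.53 ± 0.77 in males, a change of 2.11 ± 0.40 (SE) or 4.32-fold. In females the means were -0.65 ± 0.44 and 0.24 ± 0.78, a change of 0.89 ± 0.40 or 1.85-fold that was not called.

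The Reg3g probe was well above background on all 16 arrays, and the male change was 2.26 with normexp. Without AGED male replicate 1 it was 1.78 and still called, and without MAT male replicate 3 it was 1.99 and no longer called. The 2 AGED arrays with the highest Reg3g of their sex, male replicate 1 at 2.52 and female replicate 4 at 1.27, were also the highest of their sex for Lyz2 and for the macrophage marker sum given with it. They were the highest of their sex for the smooth muscle sum too. Each also had the lowest 75th percentile of its group, 9.18 and 9.83 (log2), which the scaling subtracts from every value. The intestinal list, with 4 genes past the filter, had a summed signal relative to the 75th percentile of 0.29 to 0.54 in AGED males and 0.27 to 0.35 in MAT males. Fabp2 made up 24.7% to 82.6% of that sum over the arrays, and its log2 values were -2.92 to -2.18 in AGED males and -2.17 to -1.77 in MAT males. Mmp7, of the same list, was well above background on 3 of 4 AGED male and 0 of 4 MAT male arrays, with values of -6.26 to -1.47 and -7.62 to -5.92, and was not called. The part of macrophages, of such cells or of the scaling in the Reg3g change was not tested.

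**Figure D2:**
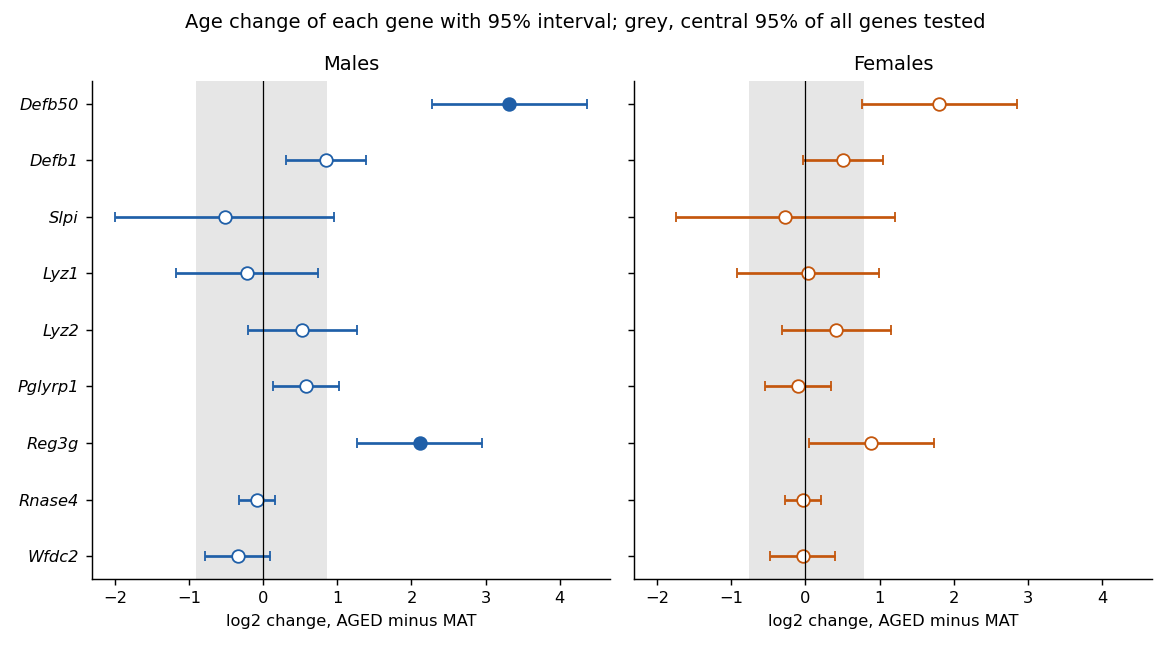
Change between AGED and MAT arrays on the log2 scale for each gene, in males (left) and females (right), with the 95% interval of the limma fit (n = 4 arrays per group). Filled points were called and open points were not; the grey band holds the central 95% of all genes tested. Defb50 at 3.32 and Reg3g at 2.11 in males were called.

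Lyz1 and Lyz2 encode the lysozymes that cut the peptidoglycan of the bacterial wall. Lyz2 is the lysozyme of macrophages and neutrophils, and Lyz1 is best known from the Paneth cells of the intestine. The Lyz2 log2 values of the MAT males were 1.78, 1.58, 1.69 and 1.93, and on the AGED male arrays 3.55, 1.94, 1.66 and 1.93. The MAT female values were 1.69, 1.70, 1.79 and 1.27, and on the AGED female arrays 2.04, 1.59, 1.73 and 2.77. In each AGED group a single array, AGED male replicate 1 and AGED female replicate 4, stood above the rest. Between MAT and AGED arrays the Lyz2 change was 0.53 ± 0.34 (SE) in males and 0.42 ± 0.34 in females, and neither was called. Without AGED male replicate 1 the male change was 0.10.

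The same 2 arrays had the highest signal of the macrophage list in their sex. The summed signal of its 10 genes with a probe, all of which passed the filter, was 216.8 on AGED male replicate 1 and 116.5 to 126.3 on the other AGED male arrays, against 107.4 to 132.5 in MAT males. It was 155.5 on AGED female replicate 4 and 90.3 to 121.8 on the other AGED female arrays, against 108.2 to 119.4 in MAT females. Csf1r made up 35.6% to 52.9% of this sum over the arrays. The defining markers Csf1r, Adgre1 and C1qa were well above background on 4 of 4 arrays of each group, and none of the 10 genes was called with age in either sex. The age change lay above 0 for 5 of the 10 in males and for 8 in females, with medians of 0.11 and 0.28 on the log2 scale. Of the 10 genes, 7 were the highest of their group on AGED male replicate 1 and 8 on AGED female replicate 4. The summed signal of the smooth muscle list was also the highest of its sex on these arrays, at 1535 and 1488. On each, 5 of its 8 genes were the highest of their group. Each array also had the lowest 75th percentile of its group, 9.18 and 9.83, which the scaling subtracts. The part of macrophages, of smooth muscle or of the scaling in the Lyz2 values was not tested.

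On the MAT male arrays the Lyz1 log2 values were 3.85, 4.13, 3.90 and 2.84, and on the AGED male arrays 4.40, 4.49, 2.33 and 2.63. On the MAT female arrays they were 3.72, 3.53, 3.96 and 3.50, and on the AGED female arrays 3.49, 3.74, 3.23 and 4.36. The AGED males split into a high pair, replicates 1 and 2, and a low pair, replicates 3 and 4, and this gave the widest SD of the 4 groups, 1.14. The Lyz1 age change, -0.21 ± 0.45 (SE) in males and 0.03 ± 0.45 in females, was called in neither sex. Over the 16 arrays Lyz1 and Lyz2 had r = 0.40, as a description, and AGED female replicate 4 was the highest female array for both. Their age changes were not tested against each other. Without AGED male replicate 1 the male Lyz1 change was -0.53, and with normexp it was -0.96.

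**Figure D3:**
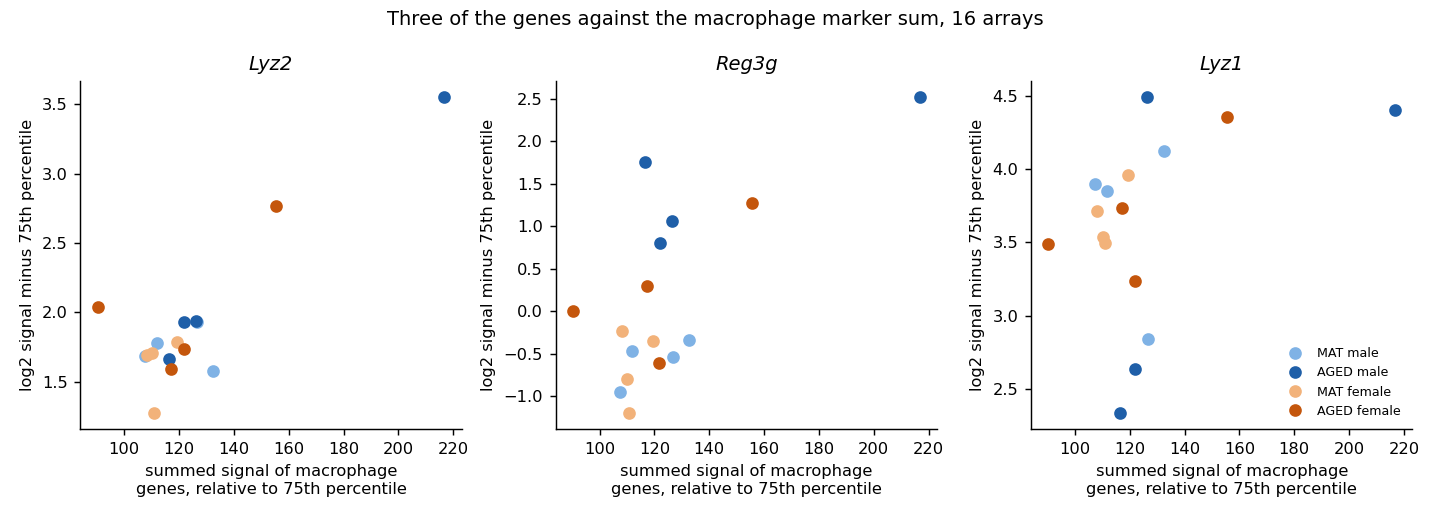
Log2 signal minus the 75th percentile of Lyz2, Reg3g and Lyz1 against the summed signal of 10 macrophage genes relative to the 75th percentile, with 1 point per array (16 arrays). The arrays with the highest marker sums, 216.8 in an AGED male and 155.5 in an AGED female, had the highest Lyz2 values, 3.55 and 2.77, and the highest Reg3g values of their sex, 2.52 and 1.27. The smooth muscle sum, which is not drawn, was also the highest of its sex on both arrays. Both axes are scaled by the 75th percentile of the array, which was the lowest of its group on these 2 arrays, 9.18 and 9.83 (log2). The part of this scaling in the match was not tested.

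Pglyrp1 encodes a peptidoglycan recognition protein stored in neutrophil granules. Its log2 values on the MAT male arrays were -3.11, -3.44, -3.39 and -3.12, and on the AGED male arrays -2.32, -2.78, -2.47 and -3.18. The MAT females read -2.70, -2.47, -2.53 and -2.76, and on the AGED female arrays -3.20, -2.49, -2.29 and -2.90. Above every MAT male were 3 of the 4 AGED males, and the AGED females spanned the whole range of the MAT females. The Pglyrp1 age change, 0.58 ± 0.21 (SE) or 1.49-fold in males and -0.11 ± 0.21 in females, was called in neither sex. The neutrophil list had 10 genes with a probe, of which 8 passed the filter. Called higher in AGED males were 2 of the 8, S100a8 and S100a9, where 0.851% of all genes tested were called. The age change lay above 0 for 4 of the 8 in males and for 6 in females, with medians of 0.38 and 0.78 on the log2 scale. The summed signal of the 8 genes was 93.7 to 118.1 in AGED males and 95.8 to 104.5 in MAT males, and 74.2 to 108.2 in AGED females and 82.9 to 90.3 in MAT females. Csf3r made up 92.5% to 98.7% of this sum, so the sum carries little of the other 7 genes. Among the defining neutrophil markers Ly6g had no probe, and Elane and Mpo were well above background on every array. The age change of Elane was -0.26 in males and -0.88 in females, and that of Mpo -0.51 and 0.43. The part of such cells in the Pglyrp1 values was not tested.

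Slpi and Wfdc2 encode secreted epithelial proteins with WAP domains. Slpi inhibits the elastase that neutrophils release and is itself antibacterial. The Slpi log2 values of the MAT males were 4.00, 3.41, 4.02 and 3.80, and on the AGED male arrays 4.56, 2.57, 2.42 and 3.60. The MAT female values were 1.75, 4.05, 2.50 and 3.62, and on the AGED female arrays 0.56, 2.89, 3.08 and 4.31. Within the female groups Slpi was the least even of the 9 genes, with an SD of 1.57 in AGED and 1.05 in MAT females. In males its SD was 0.99 and 0.29. The age change was -0.52 ± 0.69 (SE) in males, with a 95% interval of -1.99 to 0.96, and -0.27 ± 0.69 in females, with an interval of -1.75 to 1.20. Neither was called, and both intervals reach beyond a 2-fold fall. Without AGED male replicate 1 the male Slpi change was -0.94.

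Wfdc2 was read by 2 probes, and they disagreed in males. On the probe that was tested, A_55_P1953341, the log2 values were 6.89, 7.22, 6.86 and 6.60 on MAT male arrays and 6.20, 6.94, 6.03 and 7.03 on AGED male arrays. In females they were 6.57, 6.64, 6.63 and 6.56 on MAT arrays and 6.61, 6.52, 6.34 and 6.77 on AGED arrays. The age change was -0.35 ± 0.21 (SE) in males and -0.04 ± 0.21 in females, and neither was called. On the other probe, A_55_P2016166, the values were 5.44, 5.63, 5.35 and 5.58 on MAT male arrays and 5.32, 6.09, 6.00 and 6.12 on AGED male arrays, a change of 0.38. There 3 AGED males were above every MAT male and replicate 1 was below all of them. In females that probe read 5.18 to 5.44 on MAT arrays and 5.21 to 5.71 on AGED arrays, a change of 0.11. With normexp the tested probe was called lower in AGED males, at -1.18, and as the mean of both probes the male change was 0.02. The direction of the Wfdc2 change in males therefore depends on the probe.

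**Figure D4:**
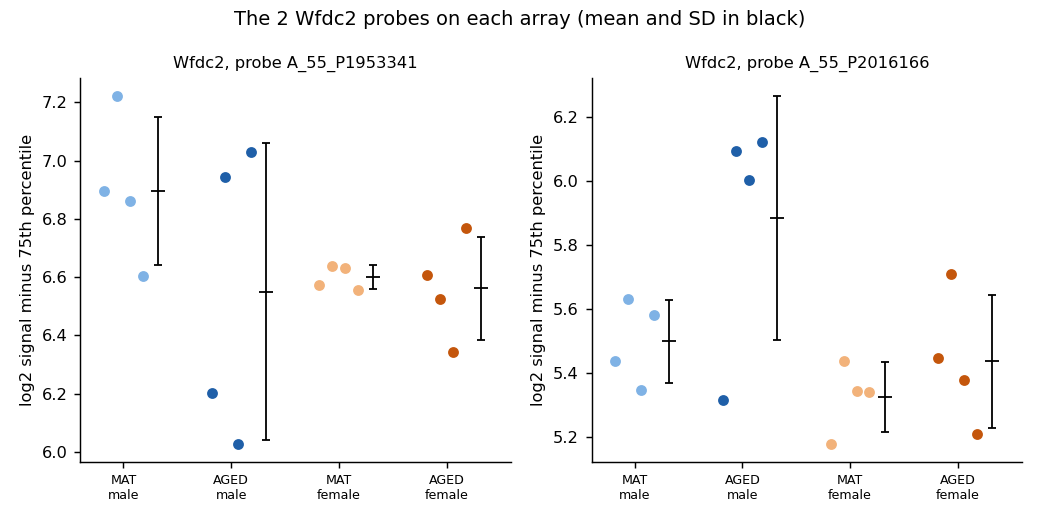
Log2 signal minus the 75th percentile of the array for the 2 Wfdc2 probes, with 1 point per array, ordered by replicate, and the mean and SD in black (n = 4 arrays per group). Between MAT and AGED males the means moved from 6.89 to 6.55 on the left probe and from 5.50 to 5.88 on the right probe.

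The urothelial list, whose 10 genes all passed the filter, had a summed signal of 605.6 to 754.9 in AGED males and 623.5 to 760.3 in MAT males, and of 502.7 to 640.9 in AGED females and 525.8 to 609.0 in MAT females. None of its genes was called with age in either sex. The ranges overlapped in both sexes, beside the uneven values of Slpi and the discordant probes of Wfdc2.

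Rnase4 encodes a secreted ribonuclease with antibacterial activity in the urinary tract. It was the most even of the 9 genes. Its log2 values were 3.16, 3.39, 3.23 and 3.41 on MAT male arrays and 3.15, 3.28, 3.04 and 3.40 on AGED male arrays. They were 3.45, 3.36, 3.21 and 3.27 on MAT female arrays and 3.33, 3.13, 3.39 and 3.33 on AGED female arrays. The age change was -0.08 ± 0.11 (SE) in males, with a 95% interval of -0.33 to 0.16, and -0.03 ± 0.11 in females, with an interval of -0.27 to 0.21. Both intervals lie well within a 2-fold change.

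The difference between the age changes of the sexes was given for each gene as the male change minus the female change. It was 1.51 ± 0.69 (SE) for Defb50, 1.23 ± 0.56 for Reg3g and 0.68 ± 0.29 for Pglyrp1, and between -0.31 and 0.34 for the other 6 genes. At an adjusted p under 0.05 in limma 0 of the 9 were called, where 0.149% of all genes were called, and nothing is read from this count since it is built from the age changes that were known.

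Males and females were then compared over both ages, as the mean of the male groups minus the mean of the female groups. The sexes were on different slides, so a difference here cannot be told apart from one between slides. The age changes do not enter this contrast, so it was tested for 8 of the genes, whereas Defb50 was listed for its values on the same AGED arrays and its difference is given as a description. Defb50 was 1.34 ± 0.35 (SE) higher in males on the log2 scale and was the 1 gene of the 9 called, where 1.78% of all genes were called. The male and female means were -2.18 and -4.27 in AGED mice and -5.49 and -6.07 in MAT mice. With normexp the difference was 0.88, under the 2-fold limit, and by the methods' t-test Defb50 was not called.

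Defb1 ran the other way and was lower in males by 1.60-fold, at -0.67 ± 0.18 (SE) on the log2 scale (limma, adjusted p = 0.0254), which is under the 2-fold limit. This p-value is of sex and slide together, which cannot be told apart. Every MAT female array was above every MAT male array for Defb1, whereas the AGED sexes overlapped. The Defb1 difference lay between -0.79 and -0.56 under 32 alternatives. For the other 7 genes the difference lay between -0.31 and 0.70 with adjusted p between 0.119 and 0.836, and the signs of Lyz1, Lyz2, Rnase4 and Wfdc2 turned under at least 1 alternative. Slpi had the widest 95% interval of these, -0.34 to 1.75, and Rnase4 the narrowest, -0.23 to 0.12. The median over all genes was 0.08, and normexp moved it to 0.18.

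Related genes of the same families were read to set the 9 genes beside their kin. Of 114 listed, 110 had a probe and 48 passed the filter. In AGED males 3 of the 48 were called higher and 0 lower, where 0.851% of all genes tested were called. In AGED females 0 were called, where 0.19% of all genes were called. In limma 10 of the 48 had an unadjusted p under 0.05 in each sex. No share over all genes is given at that limit, so whether 10 of 48 is high or low cannot be told. By the methods' t-test after adjustment 0 were called. The median age change of the 48 was -0.04 in males and -0.01 in females. The families were listed with earlier results of these data known. Nothing is therefore read from these counts, and the p-values given below for related genes are descriptions.

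The 3 called genes all came from the list of other urinary and secreted antimicrobials, of which 12 passed the filter. S100a9 and S100a8, the subunits of calprotectin, which withholds metals from bacteria, were higher in AGED males by 3.08 ± 0.56 (SE) and 2.43 ± 0.49. Lcn2, which binds bacterial siderophores, was higher by 1.05 ± 0.23 in males (limma, adjusted p = 0.0294), with values of -0.11 to 0.94 in AGED males and -1.15 to -0.27 in MAT males. The Lcn2 change was 1.04 ± 0.23 in females (adjusted p = 0.0859), where the groups did not overlap either. In females the change was 1.62 ± 0.56 for S100a9 and 1.12 ± 0.49 for S100a8, and neither was called. The study lists S100a9, like Defb50, among genes lower in AGED mice. Since that list comes from these same arrays, S100a9 and its partner S100a8 are given without a p-value, as descriptions. For Camp, the cathelicidin, which was picked after its values were seen and is given without a test, the change was 0.77 ± 0.17 in males and -0.40 ± 0.17 in females. Adm, an antibacterial peptide hormone, changed by 0.68 ± 0.19 in males (adjusted p = 0.0913). Without MAT male replicate 3, and likewise without MAT male replicate 4, 1 of the 48 related genes was called in males, and without AGED male replicate 2 it was 5.

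Among the other beta-defensins 8 of 40 passed the filter, and 0 were called in either sex. Defb45 had the largest rise of those named, at 0.88 ± 0.25 (SE) in males (adjusted p = 0.101). Its change in females was 0.62 ± 0.25 (adjusted p = 0.409), and its groups overlapped in both sexes. Of the other WAP domain genes 14 of 17 passed and 0 were called, with a median age change of -0.14 in males and 0.02 in females. Wfdc21, picked after its values were seen, was well above background on 4 of 4 AGED male arrays, at -5.20 to -2.78, and on 0 of 4 MAT male arrays, at -7.20 to -6.09. In females Wfdc21 read -7.03 to -2.55 on AGED arrays and -5.16 to -2.28 on MAT arrays. Of the other secretory ribonucleases 10 of the 16 with a probe passed and 0 were called, with a median of -0.25 and 0.05. Ang, the angiogenin that shares its locus with Rnase4, changed by -0.08 ± 0.17 in males and -0.04 ± 0.17 in females. A further 3 lysozyme-like genes and 1 other Reg lectin, Reg3d, passed with 0 called, and Reg3d changed by 0.19 ± 0.25 in males. None of the 3 other peptidoglycan recognition proteins passed the filter.

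**Figure D5:**
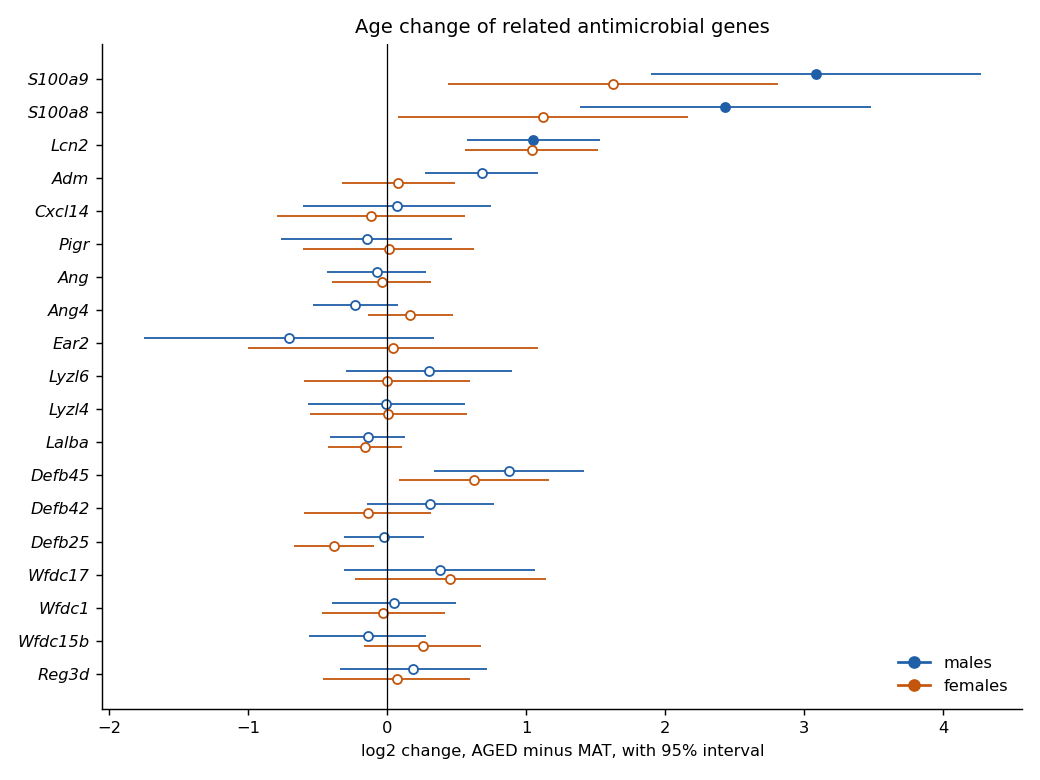
Change between AGED and MAT arrays on the log2 scale for the related genes named by rule, in males (blue) and females (orange), with the 95% interval of the limma fit (n = 4 arrays per group). Filled points were called and open points were not. S100a9, S100a8 and Lcn2 in males, at 3.08, 2.43 and 1.05, were called.

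The genes most like each of the 9 over the 16 arrays were found by Pearson's r, as a description, since the arrays share groups and scaling. For Defb50 they were Scamp2 (r = 0.92), Vsig4 (r = 0.90) and Hpf1 (r = 0.90), and for Reg3g Snora74a (r = 0.91), Hpf1 (r = 0.90) and Zfp791 (r = 0.89). Defb50 and Reg3g had r = 0.88 with each other. The age change of Vsig4 was 2.20 in males and 2.24 in females. For Lyz2 the nearest gene was Icam1 (r = 0.96). The nearest genes of Pglyrp1 were Ctsw, Sit1 and Gimap3 (r = 0.85 for each). For Lyz1, Slpi, Defb1, Rnase4 and Wfdc2 the highest r was between 0.78 and 0.88.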

How the data were processed

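The authors hybridized Cy3-labelled RNA of 16 bladders to 1-colour Agilent arrays and deposited the scanner output, from which the background-subtracted processed intensity of every spot was used. The submitters' processing notes name Feature Extraction 9.1, whereas the file header gives 10.7.3.1. A table of log2 values that the authors deposited, centred on the median of each probe, served as an alternative.

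Control spots and flagged outliers (399 probe values) were dropped, and no spot was saturated. Each probe's spots were averaged on the log2 scale and each array was scaled by its 75th percentile. Of 55681 probes, 26582 were named through RefSeq accessions (GRCm38.p6, used for names and the upstream windows). A probe passed when the extraction software flagged it as well above background on 4 or more of 16 arrays (36974 probes). Each of 26781 genes was tested on its passing probe with the highest mean, also where probes disagree. All 16 arrays entered a single limma 3.58.1 fit of group means (R 4.3.3). Called genes had a change of 2-fold or more with a Benjamini-Hochberg adjusted p below 0.05, and the fold limit was waived for the difference between the sexes in age change. With 4 bladders per group, the p-values measure the spread between mice, and the number of arrays sets the precision. The replicate numbers did not pair the arrays. Upstream windows were aligned with the blastn scores of Biopython.

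The 9 genes, the related families, the marker lists and the rules for naming genes were chosen with earlier results of these data known. Related genes were named as the 3 with the highest mean in each family and those called with age, and Camp, Wfdc21, Mmp7, Fabp2 and Csf3r, which are outside that rule, were chosen after their values were seen. For each of the 9 genes the 3 genes with the highest Pearson r over the arrays could be named. The procedure was tested on simulated arrays. Alternatives covered scaling, background correction, filters, probe choice, tests, variance models, a replicate block and the omission of single arrays.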

Additional observations from a re-analysis of the deposited data

Results flagged for a closer look

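Of the 44 sets of 4 arrays examined (the probes of the 9 genes and the 75th percentile in each group), 4 held an array far from the other 3, and chance gives about 1 in 20. The measure is the gap to the nearest array divided by the range of the group. AGED male replicate 1 was far from its group in 3 of them. Its 75th percentile of the log2 signal was 9.18 against 9.90 to 10.00 (gap over range 0.877). Its Lyz2 value was 3.55 against 1.66 to 1.94 (0.856). Its value on the Wfdc2 probe A_55_P2016166 was 5.32 against 6.00 to 6.12 (0.853). Defb1 on AGED female replicate 3 was -0.56 against -0.80 to -0.78 on the other AGED females (0.898).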

How the results depend on the processing

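Counts of called genes depended on the test more than on the scaling. Of the 9 genes, 2 were called in males, and the count was 0 by the methods' t-test with adjustment and 0 with each sex fitted alone. With normexp it was 3, since Wfdc2 was then called lower. In females the count was 0, and it was 1 (Defb50) by the methods' t-test unadjusted, by limma unadjusted, with each sex fitted alone and with array weights. Leaving out 1 array gave 1 to 2 in males (1 without MAT male replicate 3) and 0 to 1 in females (1 without AGED male replicate 1). Between the sexes over both ages the count of 1 became 0 with normexp and 2 with no fold limit. It was also 0 by a t-test of all male against all female arrays, unadjusted (0) or adjusted (0), which counts the age change as spread. For the difference of the age changes the count of 0 became 3 with unadjusted p. Counts at unadjusted p are given here without a share over all genes, so they cannot be set against all genes. Related genes called in males numbered 3, and 5 by the t-test unadjusted, 0 adjusted, 5 by limma unadjusted and 0 with each sex alone, with 1 to 5 when 1 array was left out. In females they numbered 0, and 4, 6 and 1 by the unadjusted t-test, unadjusted limma and each sex alone, with 0 to 1 when 1 array was left out (1 without AGED male replicate 1 or 3). The sign of the difference between the sexes turned for Lyz1 when 1 array was left out (range -0.29 to 0.071, above 0 without MAT male replicate 4, AGED male replicate 3 or AGED male replicate 4), for Lyz2 (range -0.030 to 0.31, below 0 without AGED male replicate 1), for Rnase4 (0.089 with normexp) and for Wfdc2 (-0.068 with quantile normalization and -0.57 with normexp). The cause was not tested. With the replicate number as a block the counts of called genes stayed at 2 in males and 0 in females, and the Defb50 change in males at 3.32, and no call of the 9 genes changed. Arrays of the same number did not deviate together (correlations of -0.15 to 0.07). The dim probe of Defb50 sets the main limit, since a MAT level near background depends on the correction.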
